A study of Mus musculus with 6 samples.

Results

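Prostaglandins are lipid signals made from arachidonic acid, and they act on the cells that make them and on their neighbours. Phospholipases free arachidonic acid from membranes, the cyclooxygenases turn it into prostaglandin H2, and terminal synthases turn that into prostaglandin E2, prostaglandin D2, prostacyclin or thromboxane. Prostaglandin E2 signals through the EP receptors, some of which raise cAMP, a messenger that drives fluid secretion by bile duct cells, and it is broken down after uptake into cells. The genes described here are those whose identifiers map to 10 fixed symbols: the cyclooxygenase genes Ptgs1 and Ptgs2, the terminal synthase genes Ptges, Ptgds and Ptgis, the breakdown enzyme gene Hpgd, and the EP receptor genes Ptger1, Ptger2, Ptger3 and Ptger4. All 10 were found among the 55401 gene identifiers of the count tables. All 10 also passed the filter on low counts that left 15334 genes for testing, Ptger1 through the WT libraries.

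The study compared cholangiocytes, the epithelial cells that line bile ducts, from wild-type (WT) mice and from mice with polycystic liver disease (PLD), both taken 3 months after tamoxifen. Each group had 3 libraries of polyadenylated RNA from cells of the dissected biliary tree that were collected on magnetic beads with an antibody against EpCAM, an epithelial surface protein. The labels do not give the strain, age at induction, targeted gene or Cre driver of the PLD mice, and they do not say whether WT mice carried a Cre transgene. Nor do they name the animals behind the libraries. If the 3 libraries of a group share an animal, the p-values reflect technical spread alone.

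The libraries held 15768561 to 16710548 counted reads, so 3 reads correspond to between 0.180 and 0.190 CPM, the reads of a gene relative to all counted reads of its library. Values below are CPM normalised by the trimmed mean of M values (TMM), as mean ± SD of 3 libraries, unless stated otherwise. All 12 cholangiocyte markers were present in both groups and higher in PLD, with a summed level of 9374 to 13689 CPM in WT and 32334 to 44833 CPM in PLD. The 15 endothelial markers, which the label does not call for, summed to 7044 to 9253 CPM in WT and to 541 to 974.9 CPM in PLD, and all 15 were lower in PLD. Fibroblast and stellate markers summed to 6690 to 11892 CPM in WT and 1763 to 4601 CPM in PLD, with 9 of 12 lower and 1 higher. All 7 smooth muscle markers were lower, with sums of 2301 to 2466 CPM in WT and 131 to 223 CPM in PLD. Among 9 macrophage markers 2 were higher and 1 lower, with sums of 378 to 436 CPM in WT and 521 to 692 CPM in PLD. Of 10 hepatocyte markers 2 were higher and 4 lower (median log2 fold change -0.65), and their sums of 1341 to 2301 CPM in WT and 1888 to 6104 CPM in PLD were mostly reads of the albumin gene Alb. Of 6 mesothelial markers 4 were lower and only Msln was higher (median -2.14), and Msln made up most of the PLD sums of 767 to 1164 CPM, against 119 to 167 CPM in WT. The mast cell genes Cpa3, Cma1 and Tpsb2 had 0 reads in every PLD library and at most 13 in a WT library. In such bulk samples, fewer cells of a type and less RNA per cell cannot be told apart.

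The promoters of both cyclooxygenase genes and a site of 30 bases near the Ptgds start are shown first, because they are the 3 genes that both passed the test and have a RefSeq promoter. RefSeq promoters (GRCm38.p6, the build that mm10 names) matched 8 of the 10 genes. Each was searched over 300 bases, 250 before the start site and 50 from it on, on both strands, for 7 motifs: the core of the cAMP response element (TGACG), the E-box (CACGTG), the AP-1 site (TGANTCA), the C/EBP site (TTGCNNAA), the TATA box (TATAAA), the GC box (GGGCGG) and the NF-kB site. The stretches of 200 bases just before the start sites are at chr2:36230226-36230425 (+) for Ptgs1 and chr1:150099831-150100030 (+) for Ptgs2, where 133 bases also lie in an exon of the antisense transcript gene Ptgs2os. The sites of 30 bases are at chr1:150100034-150100063 (+) for Ptgs2 and chr2:25469758-25469787 (-) for Ptgds. The Ptgs2 stretch, labelled start site below, covers bases 4 to 33 counted from the RefSeq start site as base 1. It thus begins just after the start site and does not contain it. Capitals mark motif matches.
Ptgs1 promoter: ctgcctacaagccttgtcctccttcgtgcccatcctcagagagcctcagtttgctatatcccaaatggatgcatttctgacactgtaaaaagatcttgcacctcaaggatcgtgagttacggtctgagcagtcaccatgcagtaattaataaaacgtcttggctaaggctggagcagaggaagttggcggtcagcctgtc
Ptgs2 promoter: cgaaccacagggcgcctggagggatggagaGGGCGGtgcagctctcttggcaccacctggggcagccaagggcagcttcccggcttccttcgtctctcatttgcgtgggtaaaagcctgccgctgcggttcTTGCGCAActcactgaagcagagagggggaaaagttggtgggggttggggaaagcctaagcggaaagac
Ptgs2 start site: gtcaccactaCGTCACGTGgagtccgcttt
Ptgds site: gccTGACTCAtaaataGGGGGTCTCCacag

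The Ptgs2 promoter held a C/EBP match at -69 to -62 and a GC box at -170 to -165, counted from the RefSeq start site as base 1. It also held a cAMP response element core at 14 to 18 that shares bases with an E-box at 17 to 22. Among the 8 promoters, only that of Ptgs2 held the cAMP response element core or the E-box, which were found in 20.8% and 7.15% of all 32851 promoters of the same length. The C/EBP match was also found for Ptger2 and in 10.8% of all promoters. The Ptgds promoter held an AP-1 match at -35 to -29 and an NF-kB match at -22 to -13, found in 7.81% and 8.46% of all promoters. The RefSeq start of Ptgds lies inside the gene model of the count tables, and 93 of the 200 bases before it are annotated as exon of Ptgds. None of the 7 motifs was found in the Ptgs1 window. GC boxes were found for 5 of the 8 genes (Ptgs2, Ptges, Ptger3, Hpgd and Ptger4) and in 35.7% of all promoters. The TATA box letters were found for Hpgd alone, at 5 to 10 and thus after the start site, and in 13.6% of all promoters. A match is a description of the letters and not evidence of binding.

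The comparison of PLD with WT asked which of these genes differed between the groups. Both cyclooxygenase genes and the receptor gene Ptger1 were lower in PLD, the prostaglandin D2 synthase gene Ptgds was higher, and the other 6 genes did not pass the test. Ptgs2 fell 2.61-fold, Ptgs1 1.66-fold and Ptger1 3.93-fold, and Ptgds rose 4.30-fold. In the quasi-likelihood test of edgeR, adjusted over all genes by Benjamini and Hochberg, 27% of the 15334 genes were higher and 28.4% lower in PLD, 55.4% together. The share of the 10 genes that passed, 40.0%, was thus below the share of all genes. Their median log2 fold change was -0.37, against 0.01 for all genes tested. All PLD libraries lay above WT for 1 of the 10 genes and below WT for 3, against 33% and 33.2% of all genes, 66.2% together.

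**Figure D1:**
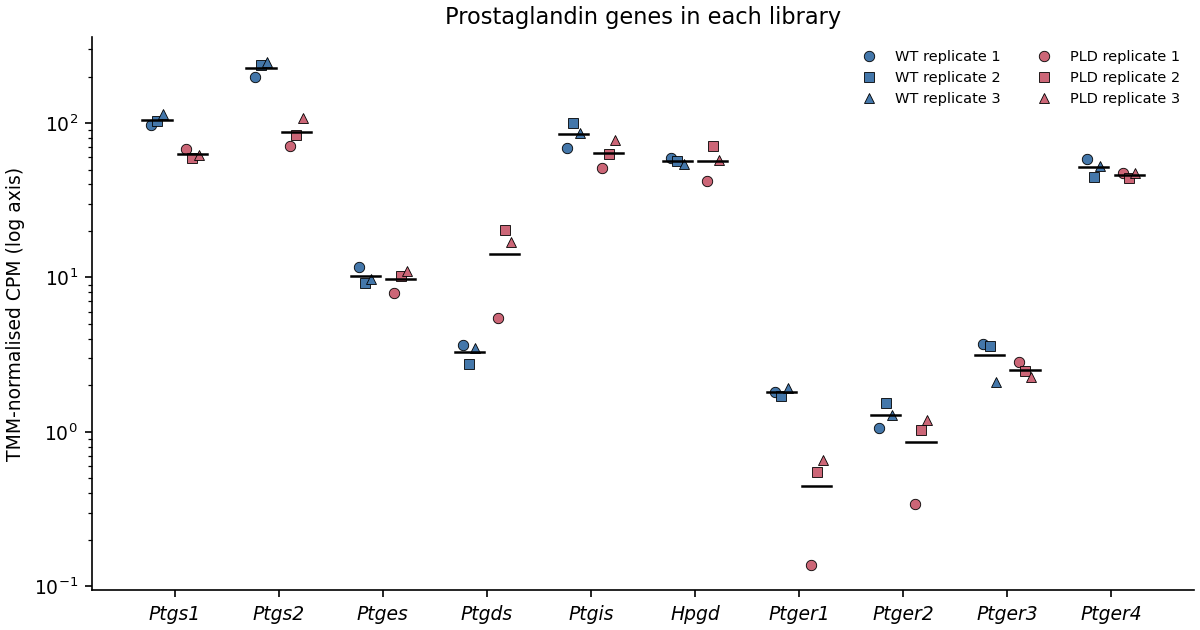
TMM-normalised CPM on a log axis of the 10 prostaglandin genes in each WT (blue) and PLD (red) library, with symbols for replicates 1 to 3 and black bars for group means. The groups separate for Ptgs1, Ptgs2, Ptgds and Ptger1, and PLD replicate 1 is the lowest PLD library for 7 of the 10 genes.

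Among the cyclooxygenases, Ptgs2 encodes the inducible enzyme COX-2 (ENSMUSG00000032487.8, mm10 chromosome 1, 150100031 to 150108227). It had 199, 238 and 249 CPM in WT replicates 1 to 3 and 70.6, 84.3 and 108 CPM in the PLD replicates. Every PLD library lay below every WT library. WT libraries averaged 229 ± 26.4 CPM and PLD libraries 87.8 ± 19.2 CPM, a log2 fold change of -1.38 with 0.17 as its standard error, SE (edgeR adjusted p = 5.72e-04). Ptgs1 encodes COX-1, the form that many cells make without a stimulus (ENSMUSG00000047250.13, chromosome 2, 36230426 to 36252272). Its WT values were 96.6, 104 and 115 CPM and its PLD values 68.2, 59.0 and 62.4 CPM. These groups did not overlap either, with averages of 105 ± 9.31 CPM in WT and 63.2 ± 4.65 CPM in PLD (log2 fold change -0.73 ± 0.11 SE, edgeR adjusted p = 0.0010). In the same libraries the endothelial marker median was -3.46 and the smooth muscle median -3.78, while the cholangiocyte marker median was 1.61. The part of these cell types in the falls of Ptgs1 and Ptgs2 was not tested.

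The balance between the cyclooxygenases can be read within each library, where library scaling cancels. Ptgs1 made up 36.4%, 33.9% and 35.3% of the summed cyclooxygenase reads per kb of exon in WT and 53.3%, 45.2% and 40.4% in PLD. All 3 PLD shares lay above the WT shares, and the mean was 35.2% ± 1.25 in WT and 46.3% ± 6.501 in PLD. The difference of 11.1 percentage points gave p = 0.10 in an exact two-sided permutation test, the smallest p that 3 against 3 libraries allow. Without PLD replicate 1, where the share was highest, the difference was 7.62 points.

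**Figure D2:**
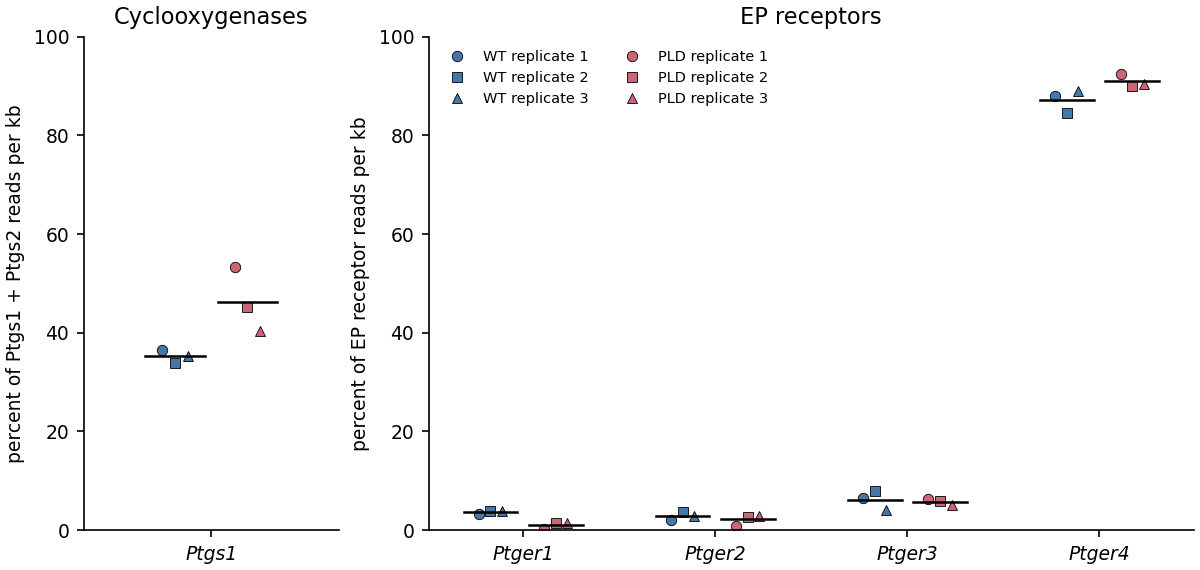
Share in percent of Ptgs1 in the summed cyclooxygenase reads per kb (left) and of each EP receptor gene in the summed EP receptor reads per kb (right), for each WT (blue) and PLD (red) library, with bars for group means. The Ptgs1 share was between 40.4% and 53.3% in PLD and at most 36.4% in WT, and Ptger4 made up at least 84.5% of the EP receptor reads in all 6 libraries.

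Among the terminal synthases, Ptgds encodes lipocalin-type prostaglandin D2 synthase (ENSMUSG00000015090.13, chromosome 2, 25466709 to 25470046). Its values were 3.65, 2.77 and 3.52 CPM in WT and 5.43, 20.2 and 17.03 CPM in PLD. PLD replicate 1 stood nearer to the WT libraries than to the other PLD libraries, yet above all of WT. The mean rose from 3.31 ± 0.476 to 14.2 ± 7.78 CPM (log2 fold change 2.10 ± 0.46 SE, edgeR adjusted p = 0.0061). Without PLD replicate 1 the log2 fold change was 2.50. PLD replicate 1 was also the PLD library with the lowest sums of endothelial, fibroblast and smooth muscle markers and the highest sum of cholangiocyte markers. Hepatocyte markers went both ways among the PLD libraries, with Alb lowest in replicate 1 and Fgb and Tat highest there. The part of these cell types in the Ptgds values was not tested. Of all genes tested, 97.3% had a lower log2 fold change than Ptgds, 23.9% one lower than Ptgs1, 13.99% one lower than Ptgs2 and 8.51% one lower than Ptger1.

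Ptges, which encodes the inducible microsomal prostaglandin E synthase that works beside COX-2 (chromosome 2, 30889471 to 30929863), had 11.7, 9.18 and 9.74 CPM in WT and 7.98, 10.3 and 10.97 CPM in PLD. The groups overlapped, with a log2 fold change of -0.06 and a 95% interval of -0.57 to 0.44 (edgeR adjusted p = 0.781). Ptgis, the prostacyclin synthase gene (chromosome 2, 167191805 to 167240604), had 69.4, 100.4 and 86.7 CPM in WT and 51.4, 62.6 and 77.5 CPM in PLD. Only PLD replicate 3 lay within the WT range, and the log2 fold change of -0.42 ± 0.18 SE did not pass (edgeR adjusted p = 0.0874). Ptgis passed without WT replicate 1 (-0.55, edgeR adjusted p = 0.0405) and without PLD replicate 3 (-0.57, edgeR adjusted p = 0.0412), and it did not pass without any of the other libraries. The partner gene 1110018N20Rik on the opposite strand shares 156 of the 2567 exon bases of Ptgis.

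Hpgd encodes 15-hydroxyprostaglandin dehydrogenase, the enzyme that starts the breakdown of prostaglandin E2 (chromosome 8, 56294585 to 56321043). It had 59.3, 56.9 and 54.5 CPM in WT and 41.9, 71.1 and 57.3 CPM in PLD. The WT libraries lay close together and the PLD libraries spread to both sides of them. The log2 fold change was -0.0037, with a 95% interval of -0.50 to 0.50 (edgeR adjusted p = 0.988).

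Among the EP receptor genes, Ptger4 stood far above the others in both groups. Ptger4 encodes EP4, a receptor that couples to Gs and raises cAMP (chromosome 15, 5206661 to 5244187). It had 58.1, 45.0 and 52.6 CPM in WT and 47.7, 44.0 and 47.6 CPM in PLD, with overlapping groups and a log2 fold change of -0.16 (95% interval -0.49 to 0.17, edgeR adjusted p = 0.277). Ptger2 encodes EP2, the other Gs-coupled receptor (chromosome 14, 44988195 to 45003820). It had 1.06, 1.53 and 1.30 CPM in WT and 0.344, 1.04 and 1.199 CPM in PLD, and the 5 reads of PLD replicate 1 were the fewest. Its log2 fold change of -0.57 did not pass (95% interval -1.80 to 0.65, edgeR adjusted p = 0.301). It was -0.20 without PLD replicate 1 and -0.87 without PLD replicate 3.

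Ptger3 encodes EP3, which mainly couples to Gi and lowers cAMP (chromosome 3, 157566892 to 157645888). It had 3.71, 3.59 and 2.10 CPM in WT and 2.82, 2.50 and 2.28 CPM in PLD, so all PLD values lay within the WT range (log2 fold change -0.31, edgeR adjusted p = 0.387). Ptger1 encodes EP1, which raises calcium in the cell (ENSMUSG00000019464.6, chromosome 8, 83666678 to 83672753). It had 31, 29 and 31 reads in WT and 2, 9 and 11 in PLD, or 1.83, 1.71 and 1.91 CPM against 0.138, 0.548 and 0.660 CPM. The WT libraries were nearly equal and all PLD libraries lay below them (log2 fold change -1.97 ± 0.45 SE, edgeR adjusted p = 0.0077). Without PLD replicate 1, whose 2 reads lie under the floor of 3 reads, the log2 fold change was -1.57. Ptger1 passed the filter on low counts only through the WT libraries, where it was high, so its count among the lower genes is partly set by that filter.

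Most exon bases of Ptger1, 3875 of 5459 (71.0%), are also annotated to another gene. For Ptger4 this holds for 1097 of 6648 exon bases (16.5%). No strand setting is recorded for the counting, so reads from overlapping genes cannot be told apart and the Ptger1 counts are uncertain in level and source.

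Divided by exon length, Ptger4 held 88.0%, 84.5% and 89.1% of the EP receptor reads per kb in WT and 92.4%, 89.95% and 90.5% in PLD. The Ptger1 share was 3.74% ± 0.323 in WT and 1.07% ± 0.653 in PLD, and neither of these shares overlapped between groups (exact two-sided permutation p = 0.10 each, 0.20 adjusted over the 4 shares). The same reads were also divided by the length of exon bases not shared with another gene, without removing reads of shared bases. The Ptger1 share was then 10.2% in WT and 3.05% in PLD and the Ptger4 share 82.6% and 90.3%. Only the length changed, so this does not separate Ptger1 reads from those of an overlapping gene. The Ptger2 and Ptger3 shares overlapped between groups, with means of 2.85% and 6.20% in WT and 2.16% and 5.81% in PLD.

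On the scale of CPM per kb, the order of levels in WT was led by Ptgs2 (49.9 ± 5.76), followed by Hpgd (33.8 ± 1.43), Ptgis (33.3 ± 6.04) and Ptgs1 (27.1 ± 2.40). Hpgd, Ptgis and Ptgs1 overlapped with their neighbours in this order, and Ptgs2 did not. Ptger4 (7.81), Ptges (2.59) and Ptgds (2.01) came next, and the other receptor genes lay between 0.249 and 0.551. In PLD the order was led by Hpgd (33.7 ± 8.68), Ptgis (24.9 ± 5.11), Ptgs2 (19.2 ± 4.19) and Ptgs1 (16.3 ± 1.198), each overlapping with the next. Ptgds (8.63 ± 4.72) was then level with Ptger4 (6.98 ± 0.318) within the spread. Ptgs2 thus stood above all of the other 9 genes in the WT libraries, and in PLD it overlapped with Ptgis and Ptgs1.

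Because cholangiocyte markers were higher in PLD, the 10 genes were also set against the summed reads of those 12 markers in each library. Per 10000 marker reads, Ptgs2 had 161, 254 and 182 reads in WT and 15.7, 23.8 and 33.5 in PLD. Ptgs1 had 78.2, 111 and 84.0 in WT and 15.2, 16.7 and 19.3 in PLD. On this scale the PLD values of every gene except Ptgds lay below the WT values, with differences of mean log2 values from -1.71 (Hpgd) to -3.97 (Ptger1). Ptgds had 2.96, 2.95 and 2.57 reads in WT and 1.21, 5.72 and 5.27 in PLD, so its groups overlapped. Since all 12 markers rose, dividing by them lowers every gene alike, and 90.3% of all 15334 genes also had all PLD values below WT on this scale. The 9 of 10 genes are thus no more than the share of all genes.

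When the edgeR test itself was scaled on these marker reads, the median of all genes shifted to -1.67, 9 of the 10 genes were lower, as were 89.5% of all genes (1.88% were higher), and Ptgds no longer passed (log2 fold change 0.52, adjusted p = 0.219). Of the genes called on that scale, 2.06% were higher, against 48.7% with TMM. This scaling lowers all genes by nearly the same amount, so the place of a gene relative to the median restates the TMM result. Ptgs2 (-3.03) and Ptgs1 (-2.41) lay below that median, and Hpgd (-1.65) and Ptges (-1.70) lay next to it, as with TMM.

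**Figure D3:**
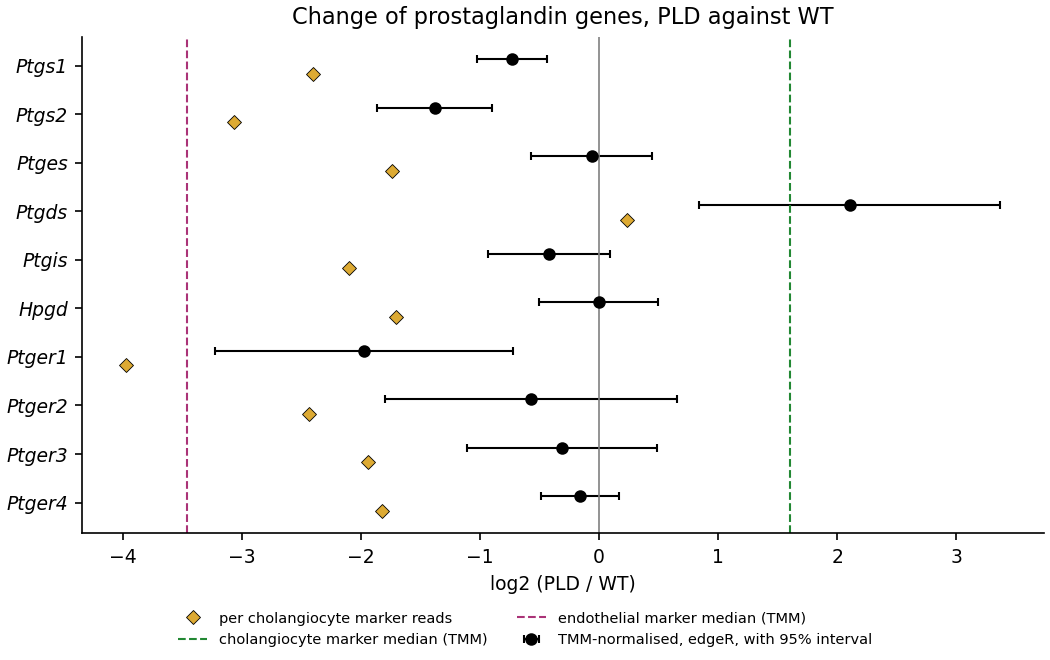
log2 ratio of PLD to WT for the 10 prostaglandin genes, from edgeR with TMM scaling (black, with 95% intervals) and per cholangiocyte marker reads (yellow diamonds, no interval), with dashed lines at the TMM medians of cholangiocyte (1.61) and endothelial (-3.46) markers. All genes except Ptgds lie below 0 on the marker scale, and the intervals of Ptgs1, Ptgs2, Ptgds and Ptger1 exclude 0 on the TMM scale.

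Other genes of the prostanoid pathway were taken from 4 fixed lists of 41 symbols, of which 40 were in the tables and 26 were tested. Of these, 8 were higher and 8 lower in PLD and 10 did not pass, with a median log2 fold change of 0.04. The 61.5% called compare with 55.4% of all genes. In the list of phospholipases and related genes, which release arachidonic acid, 3 of 9 tested genes were higher and 3 lower (66.7% called). Pla2g4a, the cytosolic phospholipase A2 gene that supplies cyclooxygenases, had 16.2, 15.9 and 14.4 CPM in WT and 8.67, 8.83 and 10.8 CPM in PLD and fell by 0.72 on the log2 scale (edgeR adjusted p = 0.0048). Pla2g5, a secreted phospholipase gene, fell by 3.59 and Pla2g4b by 2.94, each with at most 3 reads in any PLD library. Both passed the filter on low counts only through the WT libraries, so their count among the lower genes is partly set by it. Pla2g12a rose by 0.56, as did Plaa, a phospholipase activating protein gene, by 0.66.

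Among the other synthase genes, those of the additional prostaglandin E synthases rose while Ptges did not pass. Ptges2 had 18.2, 17.2 and 16.2 CPM in WT and 22.2, 28.5 and 26.1 CPM in PLD (log2 fold change 0.58 ± 0.13 SE, edgeR adjusted p = 0.0071). Ptges3, whose product p23 is also a cochaperone of Hsp90, rose from 37.9 ± 4.09 to 54.7 ± 4.24 CPM (log2 fold change 0.53 ± 0.12 SE). Per kb of exon, Ptges3 (17.1 in WT, 24.7 in PLD) and Ptges2 (3.40 and 5.07) stood above Ptges (2.59 and 2.48) in both groups. Cbr1, a carbonyl reductase gene whose product can turn prostaglandin E2 into F2alpha, rose from 29.8 ± 12.8 to 105 ± 24.5 CPM (log2 fold change 1.81 ± 0.30 SE, edgeR adjusted p = 0.0019). The thromboxane synthase gene Tbxas1 fell by 1.02 ± 0.22, and Fam213b (0.48) did not pass.

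Transport and breakdown genes also went both ways, 2 of 7 higher and 1 lower (42.9% called, against 55.4% of all genes). Abcc4, which encodes an exporter of prostaglandins and cyclic nucleotides, had 64.7 ± 7.36 CPM in WT and 40.7 ± 5.63 CPM in PLD (log2 fold change -0.67 ± 0.14 SE, edgeR adjusted p = 0.0049). The uptake transporter gene Slco2a1 had 295, 277 and 207 CPM in WT and 366, 300 and 343 CPM in PLD. Its groups did not overlap, but the log2 fold change of 0.37 ± 0.16 SE did not pass (edgeR adjusted p = 0.0757), nor did that of Slco3a1 (0.33). Ptgr1, a prostaglandin reductase gene, rose by 0.56 and the carbonyl reductase gene Cbr3 by 1.13 on the log2 scale.

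The receptor genes for other prostanoids all fell among the 3 tested, while 28.4% of all genes tested were lower. Ptgir, the prostacyclin receptor gene, had 18.2, 13.3 and 18.7 CPM in WT and 1.10, 2.50 and 3.54 CPM in PLD, a log2 fold change of -2.80 ± 0.37 SE (edgeR adjusted p = 6.79e-04). The thromboxane receptor gene Tbxa2r fell by 2.42 ± 0.63 and the prostaglandin F receptor gene Ptgfr by 0.96 ± 0.25. Ptgdr and Ptgdr2, the receptor genes for prostaglandin D2, had at most 8 reads in any library and were not tested. PLD replicate 1 was lowest for all 3 tested receptor genes, and the endothelial and smooth muscle medians of -3.46 and -3.78 stand beside these falls; their part was not tested.

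**Figure D4:**
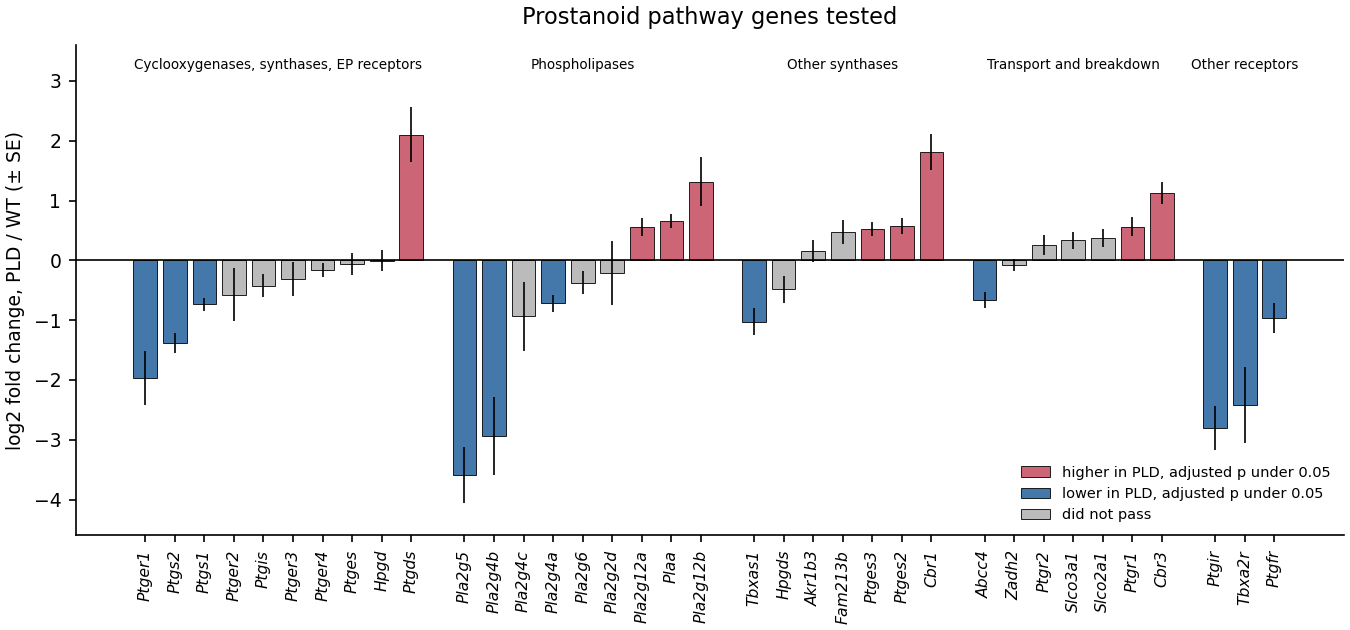
log2 fold change of PLD against WT (bars, with SE) for the 10 prostaglandin genes and the 26 tested genes of the other pathway lists, coloured by whether the edgeR adjusted p was under 0.05 and which direction it took. Ptgds and Cbr1 have the highest bars, and Pla2g5, Pla2g4b and Ptgir the lowest.

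In a list of leukotriene, lipoxygenase and related genes, whose lipids come from the same arachidonic acid, 6 of 14 tested genes fell and 2 rose, with a median of -0.85 (57.1% called, against 55.4% of all genes). Those that rose were the leukotriene B4 receptor gene Ltb4r1 (0.82) and Ptgfrn (0.39), which is neither a leukotriene nor a lipoxygenase gene and encodes a regulator of the prostaglandin F receptor. The cysteinyl leukotriene receptor genes Cysltr1 and Cysltr2 fell by 1.88 and 3.59 on the log2 scale. Aloxe3 fell by 1.52, Alox12e by 2.20 and the leukotriene C4 synthase gene Ltc4s by 1.83. Cysltr2, Alox12e and Ltc4s had at most 8 reads in any PLD library. They passed the filter on low counts only through the WT libraries, so their count among the lower genes is partly set by it. Among 11 genes of signals known to induce Ptgs2, 5 fell and 1 rose, so that 54.5% were called, near the 55.4% of all genes. Cebpd, which encodes a C/EBP factor, had 227 ± 41.7 CPM in WT and 77.1 ± 5.12 CPM in PLD (log2 fold change -1.56 ± 0.15 SE, edgeR adjusted p = 1.94e-04), and Creb1 fell by 0.49. Il1b, an inducer of Ptgs2 in many cells, rose from 92.6 ± 4.58 to 158 ± 31.3 CPM (log2 fold change 0.77 ± 0.15 SE, edgeR adjusted p = 0.0035). The relation of these genes to the Ptgs2 level was not tested.

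Across the 6 libraries, the genes whose centred log2 CPM profiles were most like that of Ptgs2 were Amotl1, Epb41l2 and Kdelc2, with root mean square differences of 0.06, 0.07 and 0.08 log2 units. For Ptgs1 they were Slc17a9, Xiap and Ptpn12, with differences of 0.04, 0.05 and 0.05. For Ptgds they were Glipr1 (0.23), Tmem130 (0.26) and Cyp2u1 (0.29), each farther from Ptgds than the nearest genes were from the cyclooxygenase genes. The search covered 13893 named genes. The PLD against WT difference is part of the profiles compared, so the genes found share its direction by construction.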

How the data were processed

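Polyadenylated RNA of 3 WT and 3 PLD libraries was analysed from 1 deposited table per library. The authors' values are raw read counts per gene, made with featureCounts 1.6.0 on GENCODE vM25 (mm10), per the file headers, whose command names no option for strand, pairs or multi-mapping reads. STAR 2.7.4a, SAMtools 1.12 and DESeq2 1.26.0 are named without settings, per the submitters' processing notes. Symbols matched 55141 of 55401 gene IDs.

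The main test was that of edgeR 4.0.16 in R 4.3.3, with filterByExpr, TMM factors (0.922 to 1.04), the quasi-likelihood F test without covariates, and Benjamini-Hochberg adjustment with a threshold of 0.05. An SE is the log2 fold change divided by the square root of F, and 95% intervals use 4 residual degrees of freedom. The biological coefficient of variation was 0.196. CPM values use all counted reads and the TMM factors. Intervals and the floor of 3 reads cover limited precision only, as molecular identifiers are not mentioned. Replicate pairs differed by more than sampling noise (chi-square per degree of freedom 9.72 to 63.9). On simulated counts of 15100 genes, the test recovered 53.0% of 2-fold and 87.0% of 4-fold changes, none (0) with the opposite sign, while 7.89% of calls were unchanged genes. Profiles for likeness used log2 CPM with a prior count of 2.

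The members and lists were chosen with earlier results of these data known. The genes named are all 10 members, up to 5 per pathway list and up to 3 of the inducing signals by smallest p, and the 3 genes most like each of the called members with the smallest p (2 per direction, of which only 1 was higher). 1110018N20Rik, Ptgdr, Ptgdr2, Ltb4r1, Ptgfrn, Alb, Fgb, Tat, Cpa3, Cma1 and Tpsb2 were named after their values were seen. Alternatives were DESeq2 1.42.0, limma-voom (limma 3.58.1), RLE and upper-quartile factors, no filter, a robust fit, a filter of 1 CPM in 3 libraries, the replicate number as a block, scaling on cholangiocyte marker reads, a minimum log2 fold change of 1, other references for shares and ratios, and leaving out each library. Shares of all reads divided by the length of unshared exon bases were added after seeing the data. The values of 1 further gene are not reported here.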

Additional observations from a re-analysis of the deposited data

How the results depend on the processing

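Ptgs2 and Ptger1 kept their direction and call under all 16 alternatives, with log2 fold changes of -3.03 to -1.24 and -3.58 to -1.57, though Ptger1 entered the test through the WT libraries where it is high. Ptgs1 kept its call except with a minimum log2 fold change of 1, and Ptgds except when scaled on cholangiocyte marker reads. That scaling gave 14006 called genes, 0 members higher and 9 lower. With a minimum log2 fold change of 1, 4188 genes were called, against 8493 without it. Leaving out 1 library gave 6799 to 8745 called genes, 1 member higher each time and 3 to 4 lower. The Hpgd value changed sign to 0.0053 with DESeq2, 0.00018 with upper-quartile factors and 0.018 without a filter; without 1 library it ranged from -0.19 to 0.18, that of Ptges from -0.14 to 0.068 and that of Ptger2 from -0.87 to -0.20. Without 1 library the difference in the Ptger3 share ranged from -1.42 to 0.449 percentage points, that in the Ptger2 share from -1.08 to -0.032, and the log2 ratio of Ptgds to cholangiocyte marker reads from -0.16 to 0.96. The cause was not tested. With a replicate block 8162 genes were called, 1 member higher and 4 lower, Ptgis being the additional one (-0.43, edgeR adjusted p = 0.0303). Deviations of same-numbered libraries correlated at 0.156, 0.036 and 0.061, and not every library correlated best with its own number. With 3 libraries per group, such values cannot decide whether the numbers pair the samples. Ptger1 and Ptger2 had only 2 to 31 reads per library.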
